A study of Homo sapiens with 5 samples.

Results

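LSD1, encoded by KDM1A, had 1378 peaks in VCaP cells that lay at the ends of gene intervals and overlapped no peak in LNCaP cells. They were selected on overlap and position from 9854 LSD1 peaks in VCaP, of 25987 peaks in the 3 lists of the series. A peak entered when it lay on chromosomes 1 to 22 or X, shared no base with a peak of the LNCaP lists for LSD1 (11673 peaks) or for histone H3 phosphorylated at threonine 6 (H3T6ph, 4460 peaks), and lay at most 1 kb from either end of a position in the RNA table. Of 9814 VCaP peaks on these chromosomes, 7813 overlapped no LNCaP peak (called VCaP-only below), and 1378 of these were at gene ends, 2935 inside genes and 3500 between genes. The absence of an LNCaP peak is what chose these peaks and is not a finding. It also depends on where the authors' caller drew its threshold in each list.

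The study asked about LSD1 in androgen signalling in 2 established human prostate cancer cell lines. VCaP and LNCaP are both androgen-responsive and derive from metastases, and VCaP carries the TMPRSS2-ERG gene fusion. The 5 groups held 1 sample each: chromatin immunoprecipitation sequencing (ChIP-seq) of LSD1 in untransfected VCaP, of LSD1 and of H3T6ph in untransfected LNCaP, and RNA-seq of LNCaP transfected with LSD1 siRNA or with control siRNA. All cells spent 3 days in medium with charcoal-stripped serum, which is low in steroid hormones, ahead of a hormone stimulus that the labels do not name. No result has a replicate check, and no test between groups was possible. The RNA is from LNCaP only, so expression at these sites in VCaP was not analysed here. Both RNA libraries carried 9 of 9 luminal prostate markers at 1 FPKM or more, and the 3 basal markers KRT5, KRT14 and TP63 were below 1 FPKM in both. In the control library 1 of 2 neuroendocrine markers and 2 of 4 markers of other cells (PTPRC, PECAM1, COL1A1 and VIM) were also at 1 FPKM or more, those of other cells at up to 47.0 FPKM with LSD1 siRNA and 31.1 FPKM with control siRNA. The identity of the VCaP sample could not be checked from a peak list. Reads per library are not given, and low FPKM values put the LSD1 siRNA library at 77.3% of the depth of the control library.

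LSD1 removes methyl groups from lysine 4 of histone H3 and acts in the CoREST and NuRD complexes, which repress transcription. It has also been described as a coactivator, and active gene starts can carry it together with its complexes. A peak at a gene start is a place where the antibody enriched chromatin and does not by itself say what LSD1 does there.

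The 7 stretches below are the 250 bases upstream of the start of KDM1A itself and of genes that start at the 5 highest-scoring of these peaks. They are shown because histone genes recur among the strongest peaks, and the other genes are set beside them. Each reads 5′ to 3′ along its gene and is from RefSeq on GRCh38.p14, whereas peak positions are on hg19, per the submitters' processing notes. The KDM1A window is chr1:23019218-23019467 on the plus strand. The others are H4C5 at chr6:26204360-26204609 (plus strand), H1-4 at chr6:26156079-26156328 (plus strand), H2BC5 at chr6:26157871-26158120 (plus strand), H2BC8 at chr6:26216689-26216938 (minus strand), PKD2L2 at chr5:137889207-137889456 (plus strand) and TTC32 at chr2:19901984-19902233 (minus strand). Capitals mark exact matches, on either strand, to letters searched for: CCAAT (the NF-Y box), TATAAA (the TATA box), GGGCGG (the GC box bound by SP factors), ATTTGCAT (the octamer of histone H2B promoters) and TGACGTCA (the cyclic AMP response element).
KDM1A: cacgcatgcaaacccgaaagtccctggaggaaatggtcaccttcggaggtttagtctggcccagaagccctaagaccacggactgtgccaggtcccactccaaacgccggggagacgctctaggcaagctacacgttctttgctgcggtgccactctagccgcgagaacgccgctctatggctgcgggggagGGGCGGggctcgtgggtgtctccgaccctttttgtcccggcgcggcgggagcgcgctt
H4C5: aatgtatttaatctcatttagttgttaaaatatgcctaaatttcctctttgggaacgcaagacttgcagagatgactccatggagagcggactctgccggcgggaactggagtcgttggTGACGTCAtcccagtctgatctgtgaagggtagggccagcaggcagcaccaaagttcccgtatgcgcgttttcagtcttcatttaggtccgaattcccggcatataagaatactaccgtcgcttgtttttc
H1-4: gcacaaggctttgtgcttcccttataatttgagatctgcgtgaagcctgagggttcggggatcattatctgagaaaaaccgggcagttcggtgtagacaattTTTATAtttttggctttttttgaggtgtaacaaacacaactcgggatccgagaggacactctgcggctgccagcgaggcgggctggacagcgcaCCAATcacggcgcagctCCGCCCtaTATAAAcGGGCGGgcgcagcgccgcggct
H2BC5: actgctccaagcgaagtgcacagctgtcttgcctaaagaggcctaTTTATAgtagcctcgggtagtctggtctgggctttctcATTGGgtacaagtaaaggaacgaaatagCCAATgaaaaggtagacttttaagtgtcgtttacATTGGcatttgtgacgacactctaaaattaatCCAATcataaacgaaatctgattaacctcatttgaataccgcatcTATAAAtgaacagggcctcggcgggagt
H2BC8: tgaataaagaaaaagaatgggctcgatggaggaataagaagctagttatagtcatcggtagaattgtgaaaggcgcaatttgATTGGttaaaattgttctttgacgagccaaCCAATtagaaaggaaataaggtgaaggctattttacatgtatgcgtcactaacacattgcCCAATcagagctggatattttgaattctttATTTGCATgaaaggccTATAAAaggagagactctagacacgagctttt
PKD2L2: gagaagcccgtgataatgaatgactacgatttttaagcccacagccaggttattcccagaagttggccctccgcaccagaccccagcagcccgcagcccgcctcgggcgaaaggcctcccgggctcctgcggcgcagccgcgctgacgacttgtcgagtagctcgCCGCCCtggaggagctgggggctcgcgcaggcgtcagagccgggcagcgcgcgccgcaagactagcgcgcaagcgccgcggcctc
TTC32: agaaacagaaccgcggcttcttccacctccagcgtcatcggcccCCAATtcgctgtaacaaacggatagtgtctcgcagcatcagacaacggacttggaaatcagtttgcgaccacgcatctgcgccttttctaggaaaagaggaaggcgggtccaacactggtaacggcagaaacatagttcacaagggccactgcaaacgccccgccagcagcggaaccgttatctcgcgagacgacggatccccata

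The H2BC8 window holds 3 CCAAT matches, an octamer 48 bases and a TATA box 32 bases before the start. H2AC8 is the divergent partner of H2BC8, and their windows share 232 bases, so the same stretch precedes both genes. The H2BC5 window holds 4 CCAAT matches and a TATA box 28 bases before the start. In H1-4 a TATA box lay 29 bases before the start, with GC boxes on either side of it and CCAAT 54 bases before the start. H4C5 had a single match, the cyclic AMP response element 131 bases before the start. The KDM1A window held only a GC box, 58 bases before the start, among the letters searched. PKD2L2 likewise held a GC box, and TTC32 a CCAAT match. The GC content was 36.8% in H2BC8, 42.4% in H2BC5, 47.2% in H4C5 and 54% in H1-4, and 55.2% in TTC32, 64% in KDM1A and 68.4% in PKD2L2. H1-4 and TTC32 were thus close in GC content. A match describes letters and does not show that a factor binds.

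VCaP-only LSD1 peaks were at gene ends in 17.6% of cases (95% Wilson interval 16.8 to 18.5, 1378 of 7813). VCaP peaks that overlapped an LNCaP peak were at gene ends in 17.9% (16.3 to 19.6, 358 of 2001). LNCaP LSD1 peaks that overlapped neither other list, called LNCaP-only, were at gene ends in 8.18% (7.66 to 8.73, 827 of 10107). The intervals of both kinds of VCaP peak overlapped, and the LNCaP-only interval lay below them. Among VCaP-only peaks the share was larger at higher scores: with these peaks split by score into 4 bins of near equal size, it was 13.3%, 14.3%, 18.4% and 24.5% from the lowest bin to the highest. Wilson intervals here and below cover counting error only, and neighbouring peaks and genes are not independent.

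Most of the peaks sat at gene starts. The RNA table gives no strand, so strand was taken from the RefSeq promoter table, which matched 1388 of the 1830 genes at these peaks and gave a strand for 1132 of the 1378 peaks. Of those, 837 were at starts only, 163 at both a start and an end, and 132 at ends only. The share at a start was 88.3% (86.3 to 90.1) for the VCaP-only peaks and 81.0% (78.0 to 83.8) for LNCaP-only peaks at gene ends. An end of an interval lay inside the peak itself for 802 VCaP-only peaks (58.2%) and for 402 LNCaP-only peaks (48.6%). Divergent starts, where genes run away from each other on opposite strands, were found at 92 VCaP-only peaks (8.13%, 6.67 to 9.86) and at 39 LNCaP-only peaks (5.56%, 4.10 to 7.52). Among VCaP peaks at gene ends that overlapped an LNCaP peak, 87.0% of those with a strand were at a start (82.6 to 90.4). In that group an end of an interval lay inside 69.3% of peaks, and 10.9% of those with a strand had divergent starts. These shares were thus not particular to VCaP-only peaks.

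The centre of the VCaP-only peaks was a median 61 bases into the gene (quartiles -336 and 394, 912 pairs of a peak and a start at intervals of a single gene). For LNCaP-only peaks the median was -62.25 bases, which is upstream of the start (quartiles -319 and 392, 496 pairs). The bin from 100 to 300 bases into the gene held 18.3% of VCaP-only pairs and 8.06% of LNCaP-only pairs. The bin from 300 to 100 bases upstream held 12.9% of VCaP-only pairs and 19.2% of LNCaP-only pairs. Peak width moves with this, since VCaP-only peaks at gene ends had a median width of 1006 bases and LNCaP-only ones 694 bases, and its part in the offset was not tested.

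**Figure D1:**
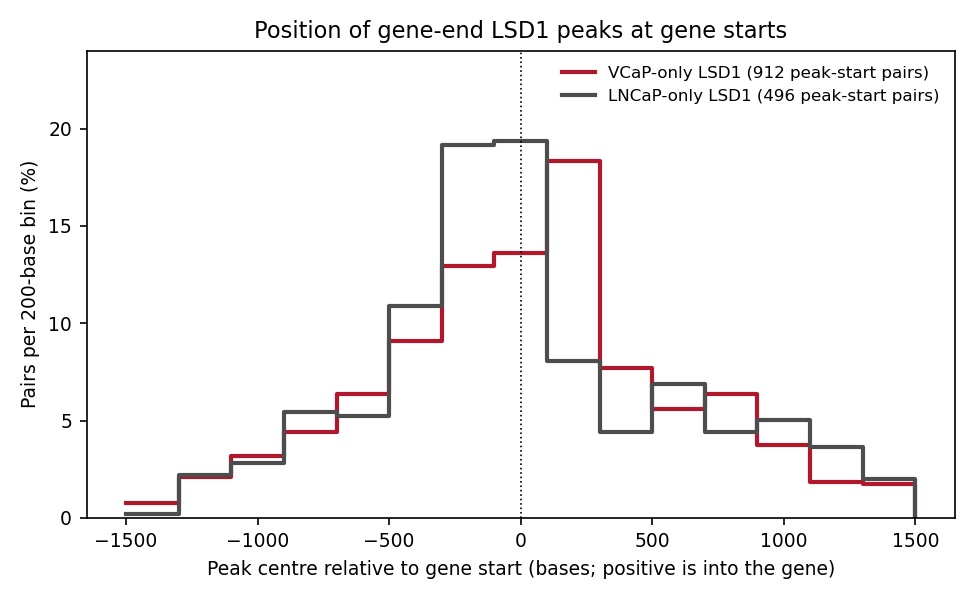
Distance of the peak centre from the gene start in bases (x axis, positive into the gene), as a percentage of peak-start pairs per 200-base bin (y axis), for VCaP-only (red, 912 pairs) and LNCaP-only (grey, 496 pairs) LSD1 peaks at gene ends. The red line is highest from 100 to 300 bases into the gene (18.3% of pairs), the grey line around and just upstream of the start; 21 VCaP-only and 1 LNCaP-only pairs beyond 1500 bases are not drawn.

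The peaks were wider than VCaP-only peaks elsewhere and had slightly higher scores. Their median score was 62.3 (quartiles 55.0 and 74.4, range 50 to 196). VCaP-only peaks inside genes had a median score of 58.2 and those between genes 58.6. Scores are the authors' own, on a scale the file does not state, so they serve here to order the peaks of a single list and no more. The median width was 1006 bases (373 to 6765) at gene ends, 779 bases inside genes and 752.5 bases between genes. VCaP peaks at gene ends that overlapped an LNCaP peak had a median score of 69.7 and a median width of 1053 bases. Neither trait was thus particular to VCaP-only peaks. Distance was measured from the edges of a peak, so a wider peak meets the 1 kb limit more easily, and the part of this was not tested. The strongest of the 1378 ranked 106 in the VCaP list.

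Distances to the nearest LNCaP peak showed few near misses. The nearest LNCaP LSD1 peak was a median 67.8 kb away, within 1 kb for 19 of the 1378 peaks and within 10 kb for 113. The nearest H3T6ph peak was a median 162 kb away, within 1 kb for 2 peaks. At the 1 kb limit, the last peaks to enter were at 984 bases from FBXO9 (score 62.2), 995 bases from BRAT1 (54.1) and 997 bases from B3GALNT1 (84.1). The first left out were at 1001 bases from LCP1 (52.8), 1003 bases from PTPRJ (53.9) and 1005 bases from MIR512-1 and MIR512-2 (55.4).

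In all, 1830 of 22554 genes with an interval had such a peak at an end, 8.11% (7.76 to 8.48). They were 1578 protein-coding genes, 103 long noncoding RNAs, 75 microRNAs, 40 transcribed pseudogenes, 20 small nucleolar RNAs and a few others. Of the peaks, 9 lay at intervals with no gene symbol and 181 at several intervals. An interval of the RNA table can hold several genes, and its ends need not be ends of each of them. The count of genes therefore includes some whose own ends have no peak, such as MIR599 and MIR875 within the VPS13B interval. Of the 1378 peaks 1144 lay only at intervals of a single gene.

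Histone genes had the highest share of the 23 gene lists. Most of them lie in clusters, lack introns and are transcribed in S phase to package new DNA. A VCaP-only peak lay at 32 of 76 histone genes (42.1%, 31.6 to 53.3), against 8.11% of all genes. VCaP peaks that overlapped an LNCaP peak lay at 9 of the 76 (11.8%), against 2.14% of all genes, so the higher share was not confined to VCaP-only peaks. An LNCaP-only LSD1 peak lay at 1 of the 76 (1.32%, 0.233 to 7.08), against 4.81% of all genes. The 32 genes shared 21 peaks, so they are not 32 separate observations. Counting every peak of a list, whether or not it overlapped another, 41 of 76 histone genes had a VCaP LSD1 peak (53.9%), 5 an LNCaP LSD1 peak (H2AC6, H2AZ2, H2BC17, H2BC4 and H4C3) and 4 an LNCaP H3T6ph peak (H2AC20, H2AC21, H2BC21 and H4C2).

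Of the 21 histone peaks, 20 lay on chromosome 6 (hg19), 12 of them between 26020270 and 26286398 and 8 between 27099839 and 27841642. At chromosome 6, 31 of 55 histone genes had a VCaP-only peak (56.4%, 43.3 to 68.6). Elsewhere there was 1, at H4C16 on chromosome 12, and none of the 12 histone genes on chromosome 1 had one. All 5 histone types were present, with 3 of 10 genes for the linker histone H1, 7 of 20 for H2A, 9 of 18 for H2B, 6 of 14 for H3 and 7 of 14 for H4.

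The histone peaks were among the strongest. Their median score was 110 (60.2 to 196, 21 peaks), against 68.0 for 60 peaks at zinc finger genes named ZNF and 62.0 for the other 1297. They made up 10 of the 40 and 11 of the 100 highest-scoring peaks at gene ends. The strongest of all, with a score of 196, covered H4C5 from end to end (chromosome 6, 26204181 to 26206339). The peak over H2AC8 and H2BC8 scored 189, that over H1-4 and the start of H2BC5 184, that over H2AC15 and H2BC15 154, that over H2AC11 and H2BC11 153 and that over H4C8 147. Other peaks of the 10 strongest were at MYOT and the interval shared by PKD2L2 and FAM13B (194), at TTC32 (186), at VPS13B and its interval's MIR599 and MIR875 (150), and at GOSR1, which encodes a Golgi transport protein (150). The end of the shared interval at this peak is the start of PKD2L2 and need not be an end of FAM13B. Histone peaks had a median width of 1325 bases.

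**Figure D2:**
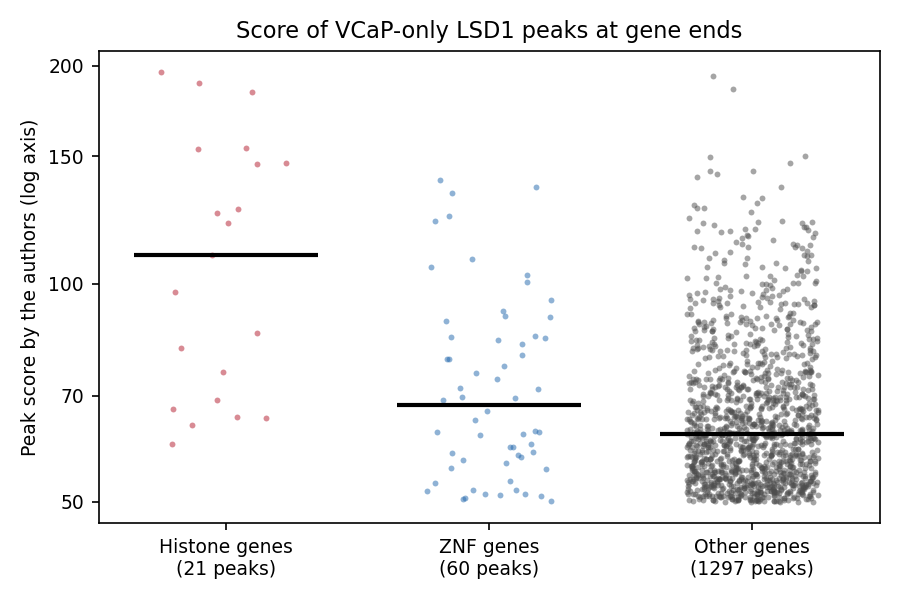
Score of each VCaP-only LSD1 peak at a gene end (y axis, the authors' score, log axis), for peaks at histone genes, at ZNF genes and at other genes; each point is a peak and the black line is the median. The 21 histone peaks have a median of 110, above the medians of 68.0 and 62.0 of the other groups, and their lowest score is 60.2.

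The 27 histone starts with a promoter window at these peaks were poor in GC, with a median of 42.7%, against 46.0% at 43 histone genes with no start at such a peak and 62.7% over 15935 genes. A CCAAT box was in 23 of the 27 windows (85.2%) and a TATA box in 18 (66.7%), against 36.2% and 9.55% of all windows. The 43 other histone windows gave 86.0% and 62.8%. Some of those 43 genes have such a peak at their end only, or a VCaP LSD1 peak that overlaps an LNCaP peak. The octamer, searched for after the values of these genes had been seen, was in 12 of 27 (44.4%), in 34.9% of the other histone windows and in 1.66% of all windows. The cyclic AMP response element was in 6 of 27 (22.2%, 10.6 to 40.8) and in 2 of the 43 other histone windows (4.65%, 1.28 to 15.5). The GC box went the other way, in 3 of 27 (11.1%, 3.85 to 28.1) and in 17 of 43 (39.5%, 26.4 to 54.4). In both cases the intervals overlapped. Windows of divergent pairs can share bases, as those of H2AC8 and H2BC8 do, so they are not all separate observations.

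In LNCaP, of the 32 histone genes 19 reached 1 FPKM in a library, and 13 of them were above and 6 below 0 on the log2 scale. Their median log2 fold change was 0.17, beside 0.15 over the 42 measured histone genes. H4C8 was at 412 FPKM with LSD1 siRNA and 262 FPKM with control siRNA (log2 fold change 0.65). H3C10 was at 14.0 FPKM with LSD1 siRNA and 21.7 FPKM with control siRNA (log2 fold change -0.60). These were the 2 of 19 past 1.5-fold, 1 in each direction, where 1.04% of all measured protein-coding genes were higher and 1.18% lower by that much. H4C5, at the strongest peak, was at 11.5 FPKM with LSD1 siRNA and 10.7 FPKM with control siRNA. Histone genes have near-identical copies, so reads can be split among them, and most of their transcripts end without the poly(A) tail that the TruSeq RNA kit selects for. Their FPKM are therefore uncertain.

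Zinc finger genes named ZNF gave the largest count of any list. Many of them encode repressors with a KRAB domain and lie in tandem clusters on chromosome 19. A VCaP-only peak lay at 67 of 505 (13.3%, 10.6 to 16.5), through 60 peaks, against 8.11% of all genes. The interval held the 11.8% of protein-coding genes from 5 to 20 FPKM in the LNCaP control library, though not the 10.1% from 1 to 5 FPKM. An LNCaP-only peak lay at 31 of the 505 (6.14%, 4.36 to 8.58), against 4.81% of all genes. VCaP peaks that overlapped an LNCaP peak lay at 19 of the 505 (3.76%), against 2.14% of all genes. The higher share was thus not confined to VCaP-only peaks. On chromosome 19 the VCaP-only count was 44 of 243 ZNF genes (18.1%, 13.8 to 23.4), beside 147 of 1333 other genes there (11.0%, 9.46 to 12.8). On the other chromosomes it was 23 of 262 (8.78%, 5.92 to 12.8). Of 54 ZNF peaks with a strand, 46 were at a start only, 5 at both and 3 at an end only.

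The strongest ZNF peaks were at ZNF234 (score 139), ZNF573 (136), a site shared by ZNF345, ZNF568, ZNF790 and ZNF829 (133) and ZNF391 (124). All 67 ZNF genes with a peak reached 1 FPKM in LNCaP, at a median of 6.93 FPKM in the control library. Their median log2 fold change after LSD1 siRNA was -0.06, with 22 above and 45 below 0, beside -0.03 over the 436 measured genes of the list. ZNF554 was the only one past 1.5-fold, at 10.2 FPKM with LSD1 siRNA and 5.96 FPKM with control siRNA (log2 fold change 0.69). Over all measured protein-coding genes 1.04% were higher by that much and 1.18% lower.

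**Figure D3:**
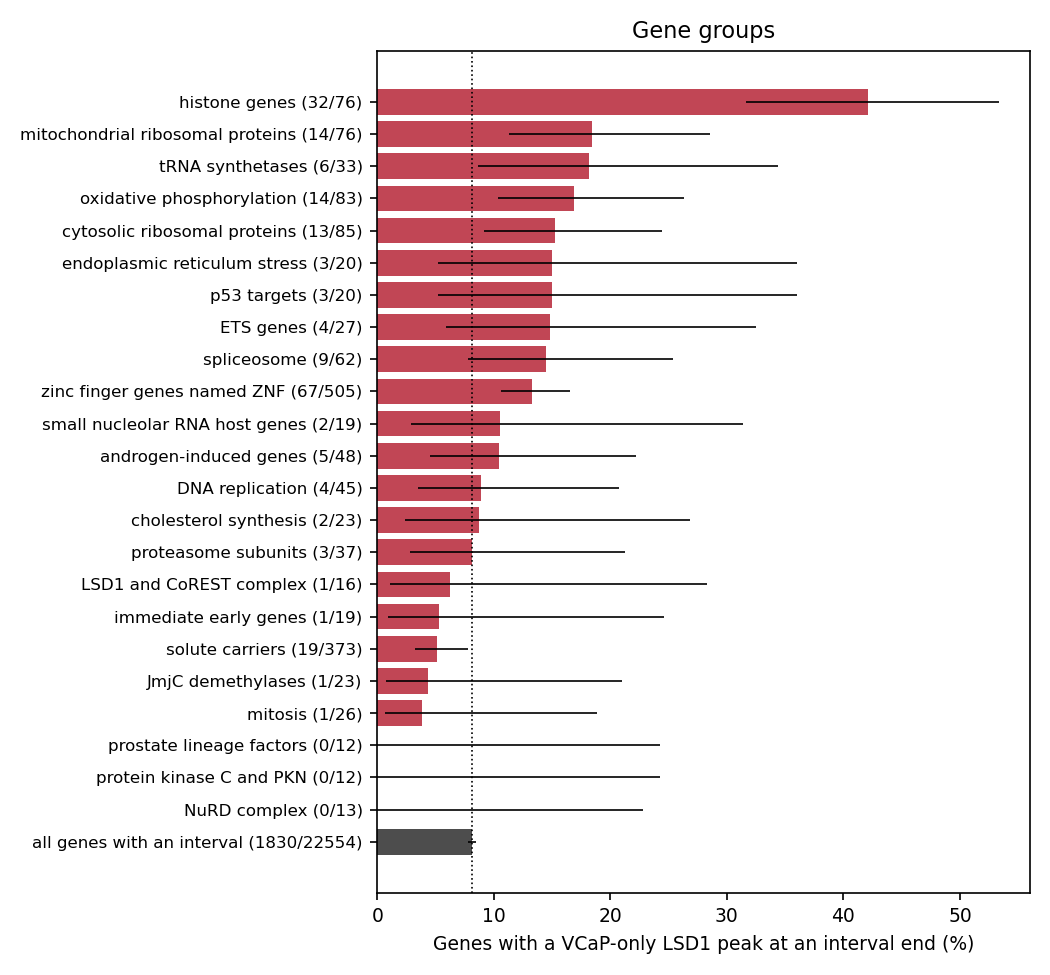
Share of the genes of each list with a VCaP-only LSD1 peak at an end of their interval (x axis, %; counts in the labels), with 95% Wilson intervals as black lines. The grey bar and dotted line mark all 22554 genes (8.11%); histone genes reach 42.1%, and the intervals of most short lists cross the line.

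Genes of the translation and respiration machinery also had shares above the 8.11% of all genes, though the spliceosome interval held that value. Expressed protein-coding genes did too, with 11.5% from 20 to 100 FPKM and 13.7% above 100 FPKM in the LNCaP control library. The intervals of all the lists below held both values, so their shares were near those of expressed genes. A VCaP-only peak lay at 14 of 76 mitochondrial ribosomal protein genes (18.4%, 11.3 to 28.6), with the highest scores at MRPS31 (84.2), MRPL39 (75.9), MRPS17 (75.7) and MRPL16 (73.3). It lay at 13 of 85 cytosolic ribosomal protein genes (15.3%, 9.16 to 24.4), among them RPL37 (105), RPS10 (87.7) and RPL27 (79.7). Oxidative phosphorylation had 14 of 83 (16.9%, 10.3 to 26.3), led by the complex I subunits NDUFA3 (123) and NDUFS5 (96.8) and the ATP synthase subunit ATP5MF (86.6). The aminoacyl-tRNA synthetases had 6 of 33 (18.2%, 8.61 to 34.4), led by YARS2 and WARS2, and the spliceosome 9 of 62 (14.5%, 7.83 to 25.3), led by SNRPF and PRPF3. LNCaP-only peaks lay at 9.21%, 5.88%, 3.61%, 15.2% and 8.06% of these lists in the same order, against 4.81% of all genes. The intervals of the 2 peak sets overlapped for the mitochondrial ribosomal (4.53 to 17.8 for LNCaP-only peaks), cytosolic ribosomal (2.54 to 13.0), tRNA synthetase (6.65 to 30.9) and spliceosome lists (3.49 to 17.5). They lay apart, narrowly, for oxidative phosphorylation (1.24 to 10.1 for LNCaP-only peaks). The 2 sets also lay apart over all protein-coding genes above 100 FPKM, at 13.7% (11.3 to 16.4) and 5.04% (3.64 to 6.92). VCaP-only peaks were at more genes in all, so this separation is not particular to oxidative phosphorylation.

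The measured genes had median control levels in LNCaP of 16.4 FPKM for tRNA synthetases and 27.0 FPKM for mitochondrial ribosomal genes. The medians were 68.9 FPKM for the spliceosome and 169 FPKM for oxidative phosphorylation, beside 13.2 FPKM over all measured protein-coding genes. None of those measured passed 1.5-fold after LSD1 siRNA. Over all measured protein-coding genes 1.04% were higher by that much and 1.18% lower, and with lists this small the absence is near those shares. The 13 cytosolic ribosomal genes had a median of 954 FPKM in the control library and a median log2 fold change of 0.00, with 6 above and 7 below 0. The 14 mitochondrial ribosomal genes had a median log2 fold change of -0.13, with 2 above and 12 below 0, beside -0.09 over all 76 of the list. The 6 tRNA synthetases had 1 above and 5 below 0, at a median of -0.24, beside -0.10 over the list. The 9 spliceosome genes had 2 above and 7 below 0, at a median of -0.04, beside -0.06 over the list. Oxidative phosphorylation had 9 of 13 measured genes above and 4 below 0, at a median of 0.03, beside -0.05 over the list. Over all measured genes 6123 were above and 6793 below 0. The counts for each list are small and rest on 1 library per siRNA, so no direction is read from them. Ribosomal protein genes have many pseudogene copies, which makes their FPKM uncertain.

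Of 48 androgen-induced genes 5 had a VCaP-only peak (10.4%, 4.53 to 22.2), an interval that holds the 8.11% of all genes. They were GNMT, a glycine methyltransferase (score 100), the elongation factor ELL2 (72.1), the ETS factor ELK4 (71.5), B2M (63.2) and IQGAP2 (57.4). All 5 were below 0 after LSD1 siRNA, with a median log2 fold change of -0.29, beside -0.38 over the 48 genes of the list. GNMT was at 13.0 FPKM with LSD1 siRNA and 19.7 FPKM with control siRNA. KLK3, KLK2, TMPRSS2, FKBP5, ERG and MYC had none. The nearest VCaP LSD1 peak of any kind to an end of the KLK3 interval was 2.20 kb away, and to TMPRSS2 27.6 kb. None of the 12 prostate lineage factors had such a peak, which allows a share of up to 24.2% by the Wilson bound.

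ETS factors had 4 of 27 (14.8%, 5.92 to 32.5): ETV1 (score 94.1), ELK4 (71.5), ELK1 (66.9) and ELF1 (66.8). Among the chromatin regulators, KDM1A was the 1 of 16 genes of the LSD1 and CoREST list and KDM3A the 1 of 23 JmjC demethylases. The NuRD complex had 0 of 13 and the protein kinase C family, whose members can place H3T6ph, 0 of 12. Solute carriers had 19 of 373 (5.09%, 3.28 to 7.82), led by SLC52A3 (118.5) and SLC29A3 (94.5), a share below that of all genes. The remaining lists had small counts: 3 of 20 each for p53 targets (TIGAR, TP53I3 and FAS) and for endoplasmic reticulum stress (TRIB3, ATF4 and CANX), 4 of 45 for DNA replication, led by POLA2 and TYMS, 3 of 37 proteasome subunits, led by PSMA4 and PSMD14, 2 of 23 cholesterol genes (PMVK and LSS), 2 of 19 small nucleolar RNA hosts (SNHG12 and SNHG6), 1 of 19 immediate early genes (ATF3) and 1 of 26 mitosis genes (KIF20A).

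KDM1A itself carried a VCaP-only peak at its start (chromosome 1, 23345337 to 23346062, hg19), with a score of 57.5, below the group's median. The interval of KDM1A begins at 23345941, inside the peak. KDM1A was at 6.87 FPKM with LSD1 siRNA and 37.0 FPKM with control siRNA (log2 fold change -2.27), which checks the siRNA label. Its q is listed as 0 in the authors' deposited table.

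The peaks were spread unevenly over the chromosomes. By share of intervals with such a peak, chromosome 12 had the highest value (14.4%, 12.3 to 16.7, 127 peaks), ahead of chromosome 21 (13.3%, 9.63 to 18.1), chromosome 19 (12.3%, 10.7 to 14.1) and chromosome 15 (10.9%, 8.75 to 13.6). Over all chromosomes it was 7.85%. Chromosome 16 had the lowest (1.25%, 0.680 to 2.28), with 10 peaks for 801 intervals, and chromosome X had 1.37%. The LNCaP-only peaks did not share this order: chromosome 16 had 6.24% (4.77 to 8.14) and chromosome 12 had 4.26% (3.18 to 5.69). The low value on chromosome 16 was not confined to gene ends, since it held 99 VCaP-only peaks of any position, while chromosome 12 held 639. On chromosome 19 the gene ends took 37.0% of the VCaP-only peaks (32.5 to 41.8, 154 of 416), against 17.6% over all chromosomes. They also took a larger part of the LNCaP-only peaks there, 54 of 194, against 827 of 10107 over all chromosomes. The higher share on chromosome 19 was thus not particular to VCaP-only peaks.

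**Figure D4:**
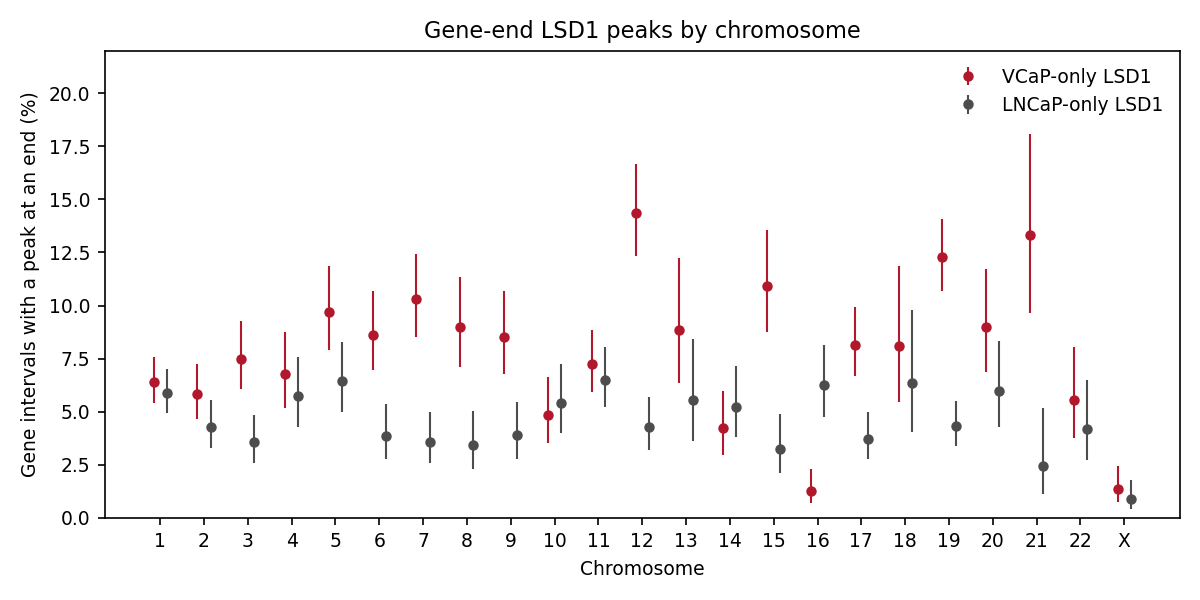
Share of gene intervals with a VCaP-only (red) or LNCaP-only (grey) LSD1 peak at an end, by chromosome (y axis, %), with 95% Wilson intervals. VCaP-only shares run between 1.25% on chromosome 16 and 14.4% on chromosome 12, where the LNCaP-only shares are 6.24% and 4.26%.

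The genes at these peaks were mostly expressed in LNCaP, where LSD1 had no peak at the site. Of 1823 with usable RNA values, 1431 reached 1 FPKM in a library (78.5%, 76.6 to 80.3), against 792 of 1082 genes at LNCaP-only peaks (73.2%, 70.5 to 75.8) and 12916 of all 22889 genes (56.4%). The median control level of the measured genes was 13.9 FPKM at VCaP-only peaks and 12.7 FPKM over all genes. Among protein-coding genes, the share with a VCaP-only peak was 2.12% of genes listed at 0 in the control library, 4.77% of those up to 1 FPKM, 10.1% from 1 to 5, 11.8% from 5 to 20, 11.5% from 20 to 100 and 13.7% (11.3 to 16.4) above 100 FPKM. LNCaP-only peaks gave 2.24% of genes listed at 0, 3.27% up to 1 FPKM, 5.07% from 1 to 5, 7.14% (6.45 to 7.91) from 5 to 20, 6.73% from 20 to 100 and 5.04% (3.64 to 6.92) above 100 FPKM. Both peak sets were thus more frequent at expressed genes than at genes listed at 0. The 5 most expressed protein-coding genes at the peaks were EEF1A1, a translation elongation factor, RPLP1, RPL27 and RPL9 of the ribosome, and B2M, the light chain of class I major histocompatibility molecules. EEF1A1 was at 2898 FPKM with LSD1 siRNA and 3022 FPKM with control siRNA, and B2M at 1402 FPKM with LSD1 siRNA and 1437 FPKM with control siRNA.

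Few of these genes differed between LSD1 siRNA and control siRNA in LNCaP. The median log2 fold change was -0.02 over the 1431 genes and -0.01 over all 12916, on the log2(FPKM + 1) scale, with 657 above and 774 below 0. Past 2-fold, 2 genes were higher (0.140%), against 0.844% of all genes measured, and 17 were lower (1.19%), against 1.13%. Of these 19 genes, 16 were small RNAs, 15 of them listed in an interval with other genes, and 10 were listed at 0 with LSD1 siRNA. The 2 higher were SNORA16B and SNORD59A, and the 3 protein-coding genes among the lower were KDM1A, B4GALT5 and PHOSPHO2-KLHL23. For RNAs of this length FPKM is unreliable. Among protein-coding genes past 1.5-fold, 10 of 1329 were higher (0.752%), against 1.04% of all protein-coding genes, and 19 were lower (1.43%), against 1.18%. The authors' deposited table called at least 1 RefSeq transcript of 10 of the 1431 genes (0.699%), against 0.906% of all genes. These shares are near or below the background. The genes with a called transcript were B4GALT5, CFLAR, FAM110A, GRK4, KDM1A, KITLG, PELI3, ZHX1, ZNF566 and ZNF850. Summed per gene, the log2 fold change was -2.27 for KDM1A, -1.06 for B4GALT5 and 0.63 for KITLG. For the others it lay between -0.29 (ZNF566) and 0.11 (CFLAR), so most of these genes barely moved as a whole.

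The largest decreases after KDM1A, among protein-coding genes at 5 FPKM or more, were in B4GALT5, a galactosyltransferase gene, and AP2B1, a clathrin adaptor subunit gene. B4GALT5 was at 13.1 FPKM with LSD1 siRNA and 28.4 FPKM with control siRNA (log2 fold change -1.06), and its peak lay 561 bases beyond the 3′ end of the gene. AP2B1 was at 49.9 FPKM with LSD1 siRNA and 96.1 FPKM with control siRNA (-0.93), with a peak of score 127 over its start. CHPT1, an enzyme of phosphatidylcholine synthesis, was at 170 FPKM with LSD1 siRNA and 276 FPKM with control siRNA (-0.70). AADAT (-0.73), SGPP1 (-0.68), LYPLA1 (-0.65), the nucleolar methyltransferase gene NOP2 (-0.64), the chaperonin subunit gene CCT2 (-0.63) and JKAMP (-0.62) made up the rest of the 10. Leaving out AP2B1 and NOP2, the peaks of these 10 genes scored between 51 at CCT2 and 63.2 at LYPLA1 and JKAMP.

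The largest increase was in LETMD1, at 29.1 FPKM with LSD1 siRNA and 16.8 FPKM with control siRNA (log2 fold change 0.76). CP, which encodes the copper protein ceruloplasmin, was at 21.0 FPKM with LSD1 siRNA and 12.5 FPKM with control siRNA (0.71). ZNF554 and H4C8 are given above, and MESD (0.68), TM4SF1 (0.63), the trefoil peptide gene TFF3 (0.53), PTCD1 (0.52), CDC42EP1 (0.51) and TUFT1 (0.50) followed. Apart from KDM1A, 1 of the 20 changes in either direction reached 2-fold, and each rests on a single library per siRNA.

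**Figure D5:**
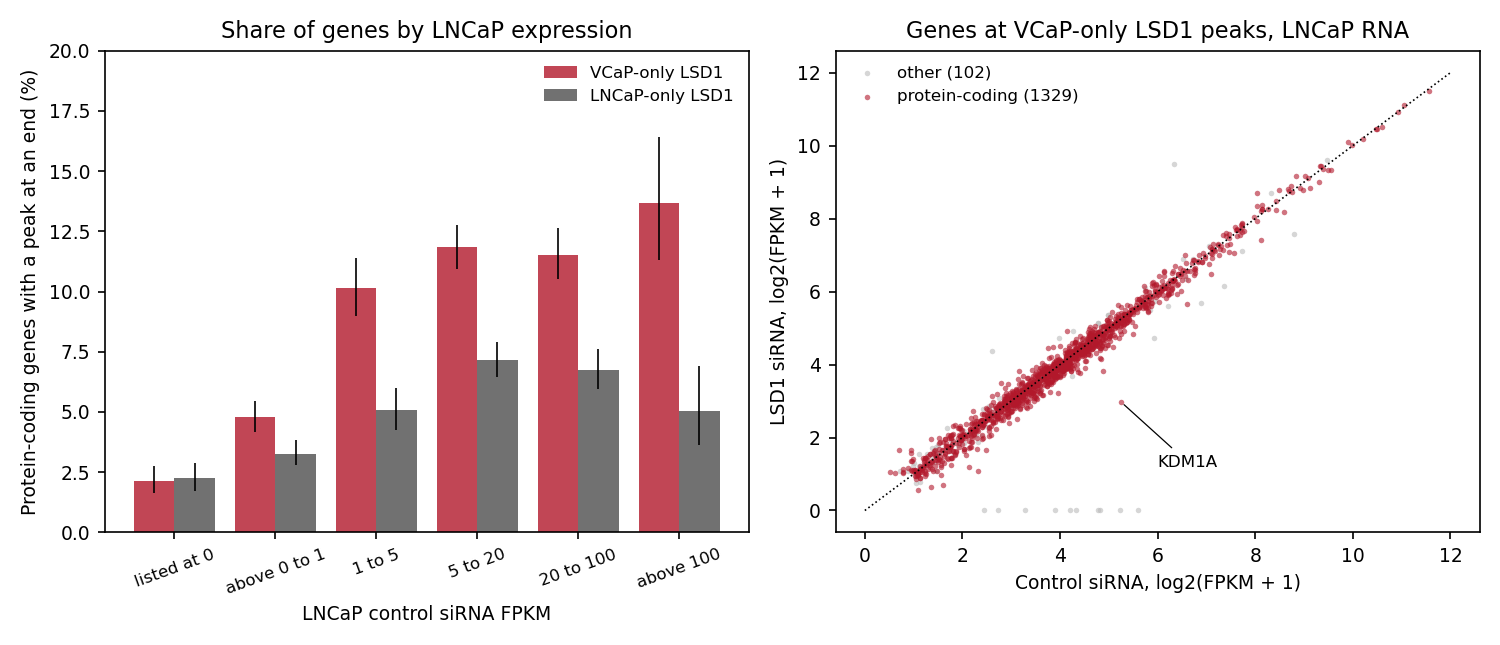
Left: share of protein-coding genes with a VCaP-only (red) or LNCaP-only (grey) LSD1 peak at an end (y axis, %) by LNCaP control FPKM, with 95% Wilson intervals; the red bars run between 2.12% and 13.7%. Right: log2(FPKM + 1) with LSD1 siRNA (y axis) against control siRNA (x axis) for the 1431 measured genes at VCaP-only peaks, with the line of equality dotted; KDM1A lies far below it, and small RNAs listed at 0 lie on the x axis.

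The promoter windows were rich in CpG. The windows are 300 bases long, from 250 upstream to 50 downstream of the start. At VCaP-only peaks, 1130 windows had a median GC content of 63.7%, and 85.1% (82.9 to 87.1) had an observed over expected CpG ratio of 0.6 or more. The same share was 79.1% (75.7 to 82.1) of 631 windows at LNCaP-only peaks, 65.5% of 15935 windows of all genes and 83.2% (82.5 to 83.9) of 9967 windows of genes at 1 FPKM or more. With expressed genes alone at the VCaP-only peaks it was 89.3% (87.2 to 91.1) of 966 windows, and this interval lay above that of all expressed genes.

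The motif shares given here were mostly close to those of expressed genes. Each motif was searched as exact letters on both strands, and no motif searched contains another. The ETS letters CCGGAAGT were in 11.1% of windows at VCaP-only peaks (9.36 to 13.0), in 8.87% at LNCaP-only peaks (6.90 to 11.3), in 9.20% of expressed genes' windows and in 6.14% of all. With expressed genes alone at the peaks, the ETS share was 12.3% (10.4 to 14.5). This interval lay above that of all expressed genes (8.65 to 9.78), while the interval over all windows at the peaks overlapped it. The NRF1 letters GCATGCGC were in 6.19% at VCaP-only peaks, 8.24% at LNCaP-only peaks and 5.85% of expressed genes. The YY1 letters AAGATGG were in 8.76% at VCaP-only peaks, 6.18% at LNCaP-only peaks and 7.76% of expressed genes. The GC box was in 63.7% at VCaP-only peaks (60.9 to 66.5) and in 69.9% of expressed genes (69.0 to 70.8). With expressed genes alone at the peaks, the GC box share was 66.3% (63.2 to 69.2), and this interval overlapped that of all expressed genes. CCAAT was in 38.1% at VCaP-only peaks and 37.3% of expressed genes.

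The TATA box was in 6.64% at VCaP-only peaks, in 5.50% of expressed genes and in 9.55% of all. With expressed genes alone at the peaks, the TATA share was 5.07%. For the forkhead letters TGTTTAC it was 2.39% at VCaP-only peaks and 2.34% of expressed genes. The GFI1 letters AAATCAC gave 2.12% at VCaP-only peaks and 1.75% of expressed genes, and the SNAI letters CAGGTG gave 16.9% at VCaP-only peaks and 18.8% of expressed genes. GFI1 and SNAI proteins are known to recruit LSD1 through their SNAG domain. The E-box CACGTG was in 9.56% at VCaP-only peaks and 10.1% of expressed genes, the E2F letters TTTCCCGC in 2.48% at VCaP-only peaks and 2.70% of expressed genes, and the cyclic AMP response element in 3.45% at VCaP-only peaks and 3.25% of expressed genes. The octamer, the motif added later, was in 30 of 1130 windows at VCaP-only peaks (2.65%, 1.87 to 3.76), 12 of them at histone starts. It was in 1.31% of expressed genes (1.11 to 1.56), an interval below that of the peaks.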

How the data were processed

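Peak lists of 3 ChIP-seq samples and 1 RNA table with 2 libraries were used as the authors deposited them. The submitters' processing notes name hg19, Bowtie2 2.0.0, TopHat2 2.0.4, MACS2 and Cuffdiff 2.0.1. Peaks were called per sample, 1 list for each, and carry the authors' score, whose scale is not stated in the file. The deposited table gives FPKM per RefSeq accession, with the authors' p-value and q-value, per the file headers. Its log2 fold change column was not used.

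Peak positions were read as 1-based, and at least 1 shared base counted as overlap. Of 40253 accessions 38934 (96.7%) matched a symbol of the RefSeq table on GRCh38.p14, and FPKM were summed per symbol. Left out were 42 genes marked as failed. Genes entered at 1 FPKM or more in either library, with fold changes of log2(FPKM + 1), LSD1 siRNA over control siRNA, which understate low genes. Strand and promoter windows came from RefSeq on GRCh38.p14, with the outermost start per gene. Python 3.11.15, pandas 2.3.3 and scipy 1.17.1 were used, and the interval code was tested on simulated data. Shares carry 95% Wilson intervals. The deposited files give no depth for ChIP, and no count of reads.

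The peaks, the 23 gene lists and the 13 motifs (a further motif was added later) were chosen with earlier results of these data known. Named genes were KDM1A and a set of androgen-related genes, those at the 10 highest-scoring peaks, the 10 largest increases and decreases at 5 FPKM or more, the 5 highest in control FPKM, the 2 to 4 highest-scoring of each list and the peaks next to the 1 kb limit. Genes outside this rule were named after their values were seen where a count was small. Some results under these rules are not reported here. With 1 sample per group there was no test. The RNA kit keeps no strand, which mixes reads from overlapping genes that run in opposite directions.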

Additional observations from a re-analysis of the deposited data

How the results depend on the processing

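Of 169 alternative values, 146 stayed within the interval or 1.5 times of the value reported, 23 moved and none changed direction. No paired analysis was possible because each group held 1 sample, and no replicate could be left out. The share of VCaP-only peaks at gene ends was 15.4% with 500 bases, 20.6% with 2 kb, 22.1% with peaks scored 60.4 (the list median) or more and 15.2% with intervals of a single gene. With that score limit 779 peaks were left, 91.4% of them at a start, with 1 gene higher and 8 lower at 2-fold, 43 ZNF, 8 cytosolic and 9 mitochondrial ribosomal genes, and the E2F letters in 1.33% of windows. The share at a start was 84.4% with 2 kb, where 5 genes were higher at 2-fold. Intervals of a single gene left 0 higher, 2 lower and 8 cytosolic ribosomal genes. Protein-coding genes alone gave 0 higher and 3 lower, and a pseudocount of 0.1 gave 6 higher. The median control level was 9.08 FPKM with no filter and 18.5 FPKM at 5 FPKM, and the median log2 fold change was 0 with no filter. The counts of 2-fold changes rest on small RNAs. Depth is unknown for the ChIP samples, so a difference in LSD1 between the lines cannot be told apart from a difference in depth or peak threshold.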
